A study of Mus musculus with 66 samples.

Results

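Nr1d1, Nr1d2 and Arntl encode the nuclear receptors REV-ERBα and REV-ERBβ and the circadian activator BMAL1, and they are described here across a time course of Myc activation in mouse fibroblasts. The 3 genes were taken by symbol from the 11513 genes of the deposited tables and had been chosen by their changes in these same libraries. Their levels and changes are therefore a description with no test. Each of the 3 was listed in every table and passed the filter on low values (3 or more libraries with a value of 10 or above).

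The cells, called 3T9-MycER, are mouse embryonic fibroblasts that carry floxed c-myc (c-myc flox/flox) and the retroviral construct pBabe bleomycin MycER. MycER is a fusion of the transcription factor Myc with a hormone-binding domain of oestrogen receptor type, and 4-hydroxytamoxifen (OHT) activates it. OHT was given at 400 nM for 10, 20 or 30 min, or for 1, 1.5, 2, 4, 8, 12 or 16 h, and cells at 0 min had none. Each time has 3 libraries of RNA that took up 4-thiouridine (4sU, 300 µM) over 10 min and 3 of total RNA, which makes 66 libraries. All groups carried the same alleles and the same MycER construct, and the labels do not state that the floxed alleles had been deleted. The 4sU base enters RNA while it is made, so labelled RNA is mostly new RNA, and exon and intron values were deposited in separate tables. The labels do not say where the 10 min of labelling lay within a stated time. No time course without OHT was analysed here, so MycER activity, OHT itself and time in culture cannot be told apart. No label ties the replicate numbers to separate cultures, so the spread between libraries, and the p-values built on it, may be technical.

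REV-ERBα and REV-ERBβ sit on DNA elements called ROREs, a short nuclear receptor site with an A/T-rich stretch before it, and recruit the NCoR and HDAC3 corepressor complex. BMAL1 pairs with CLOCK and activates genes through E-boxes, among them the genes for PER, CRY and both REV-ERB proteins. The REV-ERB proteins repress Arntl in return, which forms a second loop of the circadian clock, and heme is their ligand. Myc pairs with MAX and also binds E-boxes of the letters CACGTG.

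These elements, with mm9 coordinates unless stated, are shown because the 3 genes are linked to each other through them. The Arntl promoter below (RefSeq, GRCm38.p6, plus strand, chr7:113207261-113207560, from 250 bases before to 50 after the annotated start) has in capitals both matches to a RORE-like motif, AAN followed directly by TAGGTNA, which was searched on both strands. All 3 genes matched entries of the RefSeq promoter table by symbol, and the Arntl entry with both matches is shown. The annotations place the Arntl start differently. The first match begins 9 bases before the RefSeq start and the second at base 28 counted from it, with the start base included. They begin 37 and 73 bases after the GENCODE M1 start.

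Arntl promoter: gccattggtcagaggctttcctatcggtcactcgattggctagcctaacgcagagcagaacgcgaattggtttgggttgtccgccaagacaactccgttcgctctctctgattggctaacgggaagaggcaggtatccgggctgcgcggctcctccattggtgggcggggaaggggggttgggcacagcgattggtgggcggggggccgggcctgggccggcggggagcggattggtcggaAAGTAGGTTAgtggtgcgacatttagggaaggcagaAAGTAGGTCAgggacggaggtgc

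The motif was present in 0.682% of the 32851 RefSeq windows of 300 bases. In wider windows of 1000 bases to each side of the gene starts in the GENCODE M1 annotation of mm9, it was present in 4.4% of 10543 genes, and 0.142% held 2 or more matches, as Arntl did. The second Arntl match overlaps a match to AGGTCA, the core nuclear receptor site, which lay in 66.1% of the wider windows. The next lines give, on the strand of each gene, the CACGTG matches in capitals in the wider windows of Nr1d1 (minus strand, chr11:98637009-98637014) and Nr1d2 (minus strand, chr14:19071187-19071192, chr14:19071084-19071089 and chr14:19071039-19071044), and the single RORE-like match of Nr1d1 (minus strand, chr11:98636467-98636476), which reads in reverse orientation.

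Nr1d1 E-box, 367 bases before the start: cagttctccaatCACGTGaagctctcacgt

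Nr1d2 E-box, 449 bases after the start: tgccgcactggcCACGTGcacggtgtgttt

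Nr1d2 E-box, 552 bases after the start: ggcgggcggagaCACGTGaggccgcggggc

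Nr1d2 E-box, 597 bases after the start: gggccggaggaaCACGTGggggcggtgccg

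Nr1d1 RORE-like match, 171 bases after the start: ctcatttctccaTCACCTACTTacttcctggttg

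CACGTG was present in 32.9% of the 10543 wider windows, and 1.65% held 3 or more, as Nr1d2 did. The Arntl window held no CACGTG and the Nr1d2 window no RORE-like match. A match is a run of letters and not a measured binding site, and no binding data were used here.

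**Figure D1:**
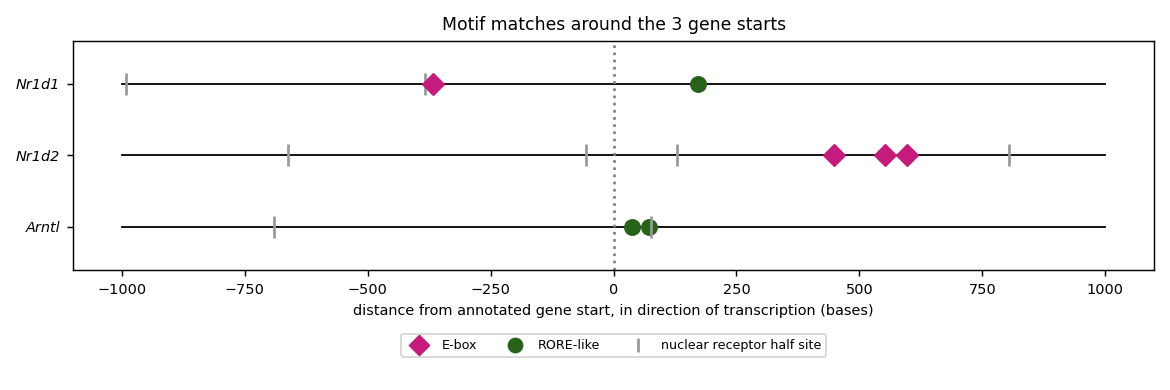
Matches to CACGTG (E-box), the RORE-like motif and AGGTCA (core nuclear receptor site) within 1000 bases of the annotated starts of Nr1d1, Nr1d2 and Arntl, with distance in bases along the direction of transcription on the x axis. Nr1d2 held 3 E-box matches and Nr1d1 had 1, while Arntl held 2 RORE-like matches just after its mm9 start.

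Values below are the deposited values of the tables named counts, rescaled between libraries, so they are a score and not a number of reads. Mean values carry the SD over 3 libraries, and a log2 change carries its standard error (SE) from the limma fit. Scaled values are not per length, so they are compared between times of 1 gene and not between genes. No spike-in is described, and a change is relative to the typical gene, whose median log2 change lay between -0.026 and 0.029 in every table and time. Libraries of the same time correlated with r between 0.9857 and 0.9968 across genes, and no pair was identical. Fibroblast markers summed to between 1950 and 3600 RPKM in total exons of OHT-treated cells, against 3280 to 3480 RPKM at 0 min, with 10 of 12 listed. None of the epithelial, muscle or adipocyte markers was listed, and the single endothelial marker listed, Pecam1, stayed at or under 0.146 RPKM. Blood markers, 3 of 4 listed, summed to 2.59 to 4.55 RPKM in OHT and 2.64 to 2.89 RPKM at 0 min, and the neuronal markers Tubb3 and Map2, 2 of 3 listed, to 8.52 to 31.1 RPKM in OHT and 8.38 to 9.98 RPKM at 0 min. The part of these shifts in the results was not tested. Myc itself had 1481, 1059 and 1135 in total exons at 16 h, against 3042, 2840 and 3075 at 0 min, and these values cannot separate the cell's own Myc from MycER.

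Nr1d1 (Entrez 217166, chromosome 11 from 98629246 to 98636647, minus strand, mm9) encodes REV-ERBα. Its introns in labelled RNA were already higher at the first sampled time. They had 294.7, 353.5 and 401.5 at 10 min, 1161, 953 and 1090 at 20 min and 1132, 1160 and 1378 at 30 min, against 191.8, 181.6 and 150.3 at 0 min. All 3 libraries lay above all 3 at 0 min at each of the 10 times in OHT, where the share of all genes doing so was 5.81%, 20.3%, 25.2%, 25.8%, 24.2%, 26.1%, 27.1%, 27.8%, 29% and 29.2% in time order. The highest mean, 1223 ± 135 at 30 min, was 7.01-fold that at 0 min, a log2 change of 2.80 ± 0.14. The mean then declined to 665.7 ± 41.7 at 4 h and 477.3 ± 69.1 at 16 h, which was still 273% of 0 min.

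New Nr1d1 exons were also higher from the first sampled time, with a smaller change there and a later highest mean. Labelled exons had 417.2, 396.3 and 387.1 at 10 min, 1361, 1174 and 1247 at 20 min and 2174, 1850 and 1999 at 1 h, against 349.2, 285 and 263.6 at 0 min. No library at any of the 10 times overlapped those at 0 min, with 4.17%, 11.2%, 16.3%, 20.2%, 18%, 21.3%, 23.7%, 24.3%, 27.8% and 27.9% of all genes above in time order. The step between 10 min and 20 min was 1.65 ± 0.11 on the log2 scale, which ranked 6 from the highest among 11488 genes. At 1 h the mean was 6.71-fold that at 0 min (log2 change 2.75 ± 0.11), and at 16 h it was 3.12-fold (932.4 ± 85.8 against 299.3 ± 44.5).

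In total RNA the exons of Nr1d1 lagged behind. They had 541.1, 610.1 and 432 at 10 min, which overlapped 595.5, 497.7 and 365 at 0 min. At 20 min they had 1179, 1396 and 1113, at 1 h 3806, 3530 and 3698 and at 1.5 h 3738, 4899 and 4005. From 20 min on all libraries lay above those at 0 min, as did 4.37%, 6.02%, 14.2%, 17.6%, 18.7%, 22.9%, 28.1%, 29.7% and 29.3% of all genes at these 9 times. The highest mean, at 1.5 h, was 8.67-fold that at 0 min (log2 change 3.13 ± 0.14). At 1 h and at 1.5 h the log2 change of Nr1d1 ranked 1 of 11486 genes in total exons. From 4 h to 16 h the mean lay between 1904 ± 187 and 2367 ± 229, and neighbours in the order of levels from 8 h down to 16 h overlapped. Introns in total RNA, which are unspliced RNA, were highest at 30 min (670.8 ± 51) and 1 h (671.7 ± 9.67), against 109.2 ± 23.9 at 0 min. They lay above 0 min at all 10 times, where the shares of all genes above were 5.04%, 15.2%, 19.4%, 23.9%, 25.3%, 23.5%, 23.1%, 25.5%, 26.8% and 26.9% in time order.

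The 3' end of Nr1d1 overlaps that of Thra, the gene of thyroid hormone receptor α on the opposite strand (Entrez 21833, chromosome 11 from 98601952 to 98630320). The overlap covers 1075 bases from 98629246 to 98630320, and the exons of both genes share 263 bases, which are 8.42% of the exon bases of Nr1d1 and 5.7% of those of Thra. Whether the authors' counting used strand is not given in the sources used here, so reads in the shared bases may belong to either gene. Labelled exons of Thra had 487.5, 557 and 583.6 at 30 min, against 283.4, 361.5 and 329.3 at 0 min, and were 167% of the 0 min mean. By 16 h they had 254.6, 255.8 and 216.2, below all libraries at 0 min, as in 25.2% of all genes, while Nr1d1 was still above (27.9%). Thra exons in total RNA were lower at 16 h too, at 53.4% of 0 min (limma, log2 change -0.90 ± 0.09). Thra introns were 129% of 0 min in labelled RNA at 30 min and 55.9% at 4 h. The part of shared reads in the values of either gene was not tested.

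Nr1d2 (Entrez 353187, chromosome 14 from 19036568 to 19071641, minus strand, mm9) encodes REV-ERBβ, the paralog of REV-ERBα, and no other annotated gene overlaps it. It was higher early too, with a smaller fold change than Nr1d1. Labelled introns had 3088, 2955 and 2843 at 10 min, which overlapped 3020, 2501 and 2238 at 0 min. They reached 5819, 5447 and 6006 at 20 min and 6377, 6175 and 6381 at 30 min, above every library at 0 min, as in 20.3% and 25.2% of all genes. The mean at 30 min was 2.44-fold that at 0 min, a log2 change of 1.30 ± 0.09, and at 16 h it was 1.79-fold.

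Labelled exons of Nr1d2 had 1397, 1237 and 1102 at 20 min, 1644, 1626 and 1725 at 1 h and 1652, 1516 and 2052 at 1.5 h, against 1070, 790.5 and 723.3 at 0 min. They lay above all 0 min libraries at 9 of 10 times, all but 10 min, where between 11.2% and 27.9% of all genes did so. The highest mean, at 1.5 h, was 2.02-fold that at 0 min (log2 change 1.02 ± 0.12), and levels from 20 min to 16 h lay between 1245 ± 148 and 1740 ± 279 with each neighbour in the order of levels overlapping the next. The log2 change at 16 h was 0.83 ± 0.12, close to the 0.85 ± 0.12 at 30 min. Labelled exons of Nr1d1, by contrast, had a log2 change of 1.64 ± 0.11 at 16 h and 2.54 ± 0.11 at 30 min.

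Total exons of Nr1d2 had 4639, 4310 and 3371 at 30 min, which overlapped 4631, 3711 and 3343 at 0 min. They had 5539, 5701 and 6283 at 1 h, the first time without overlap, and 7923, 6591 and 7401 at 4 h, the highest mean (1.88-fold, log2 change 0.92 ± 0.13). From 1 h to 16 h they lay above 0 min at all 7 times, where between 14.2% and 29.7% of all genes did so. Replicate 1 was the highest of the 3 libraries at 0 min, 10 min, 20 min and 30 min, and replicate 3 the lowest. Introns of Nr1d2 in total RNA were 1.68-fold at 20 min and 2.21-fold at 30 min, when total exons were 1.01-fold and 1.05-fold.

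Arntl (Entrez 11865, chromosome 7 from 120350979 to 120457636, plus strand, mm9) encodes BMAL1, and no other annotated gene overlaps it. In labelled RNA its libraries overlapped those at 0 min up to 1 h, and they lay lower from 1.5 h on in introns and from 2 h on in exons. Labelled introns had 4749, 5318 and 6054 at 1 h, which overlapped 4877, 6673 and 5852 at 0 min. They had 2996, 3579 and 3509 at 1.5 h, 2016, 2298 and 1990 at 2 h and 1525, 1395 and 1397 at 4 h, below all 0 min libraries, as were 24.6%, 26.9% and 27.8% of all genes at these times and 27%, 27.6% and 25.8% at 8, 12 and 16 h. The log2 change was -0.78 ± 0.14 at 1.5 h, -1.46 ± 0.14 at 2 h and -2.00 ± 0.14 at 4 h. At 12 h the mean was 20.3% of that at 0 min, the lowest of the course, and at 16 h it was 27.5%.

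Labelled exons of Arntl had 356.3, 505.5 and 610.2 at 1.5 h, which still overlapped 574.6, 856 and 592.9 at 0 min. At 2 h they had 327.9, 309 and 344.9 and at 4 h 174.6, 130.8 and 192.7, without overlap, as in 19.1% and 23.1% of all genes, and none overlapped 0 min at 8, 12 or 16 h either (25.3%, 25.9% and 25.2% of all genes). The mean was 48.5% of 0 min at 2 h, 24.6% at 4 h and 18% at 12 h (log2 change -2.46 ± 0.17). The means from 4 h to 16 h, between 121.4 ± 27.4 and 166 ± 31.8, overlapped their neighbours in the order of levels.

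Unspliced Arntl in total RNA was lower before the spliced RNA was. Its introns there had 967.4, 946.7 and 1152 at 1.5 h, 686.4, 702.8 and 683.3 at 2 h and 477.7, 470.3 and 478 at 4 h, against 1277, 1522 and 1477 at 0 min. From 1.5 h to 16 h they lay below 0 min at all 6 times, as did 25.2%, 24.3%, 24.3%, 27%, 26.4% and 24.4% of all genes. The log2 change was -1.04 ± 0.13 at 2 h and -1.68 ± 0.13 at 12 h.

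Total exons of Arntl behaved in steps. At 1 h they had 1989, 1946 and 1919, above all of 1410, 1906 and 1696 at 0 min, by a log2 change of 0.23 ± 0.15, as in 14.2% of all genes. At 2 h they had 1545, 1629 and 1863, and the mean was 100% of that at 0 min, while labelled exons stood at 48.5% and labelled introns at 36.2%. At 4 h they had 434.8, 444 and 464.5, or 26.8% of 0 min. The step of -1.90 ± 0.15 between 2 h and 4 h ranked lowest of 11486 genes, among which 11 had a step below -1 and the median step was 0.004. No time between 2 h and 4 h was sampled. Levels went on to 375.3, 310.7 and 259.4 at 8 h and 348.7, 212.4 and 227.9 at 12 h, the lowest mean at 15.7% of 0 min (log2 change -2.69 ± 0.15). At 16 h they had 283.6, 324.6 and 268.6, which overlapped those at 8 h and 12 h, so no return was seen within the spread. All libraries lay below 0 min at the 4 times from 4 h to 16 h, as did 24%, 30.1%, 32.2% and 32.3% of all genes.

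**Figure D2:**
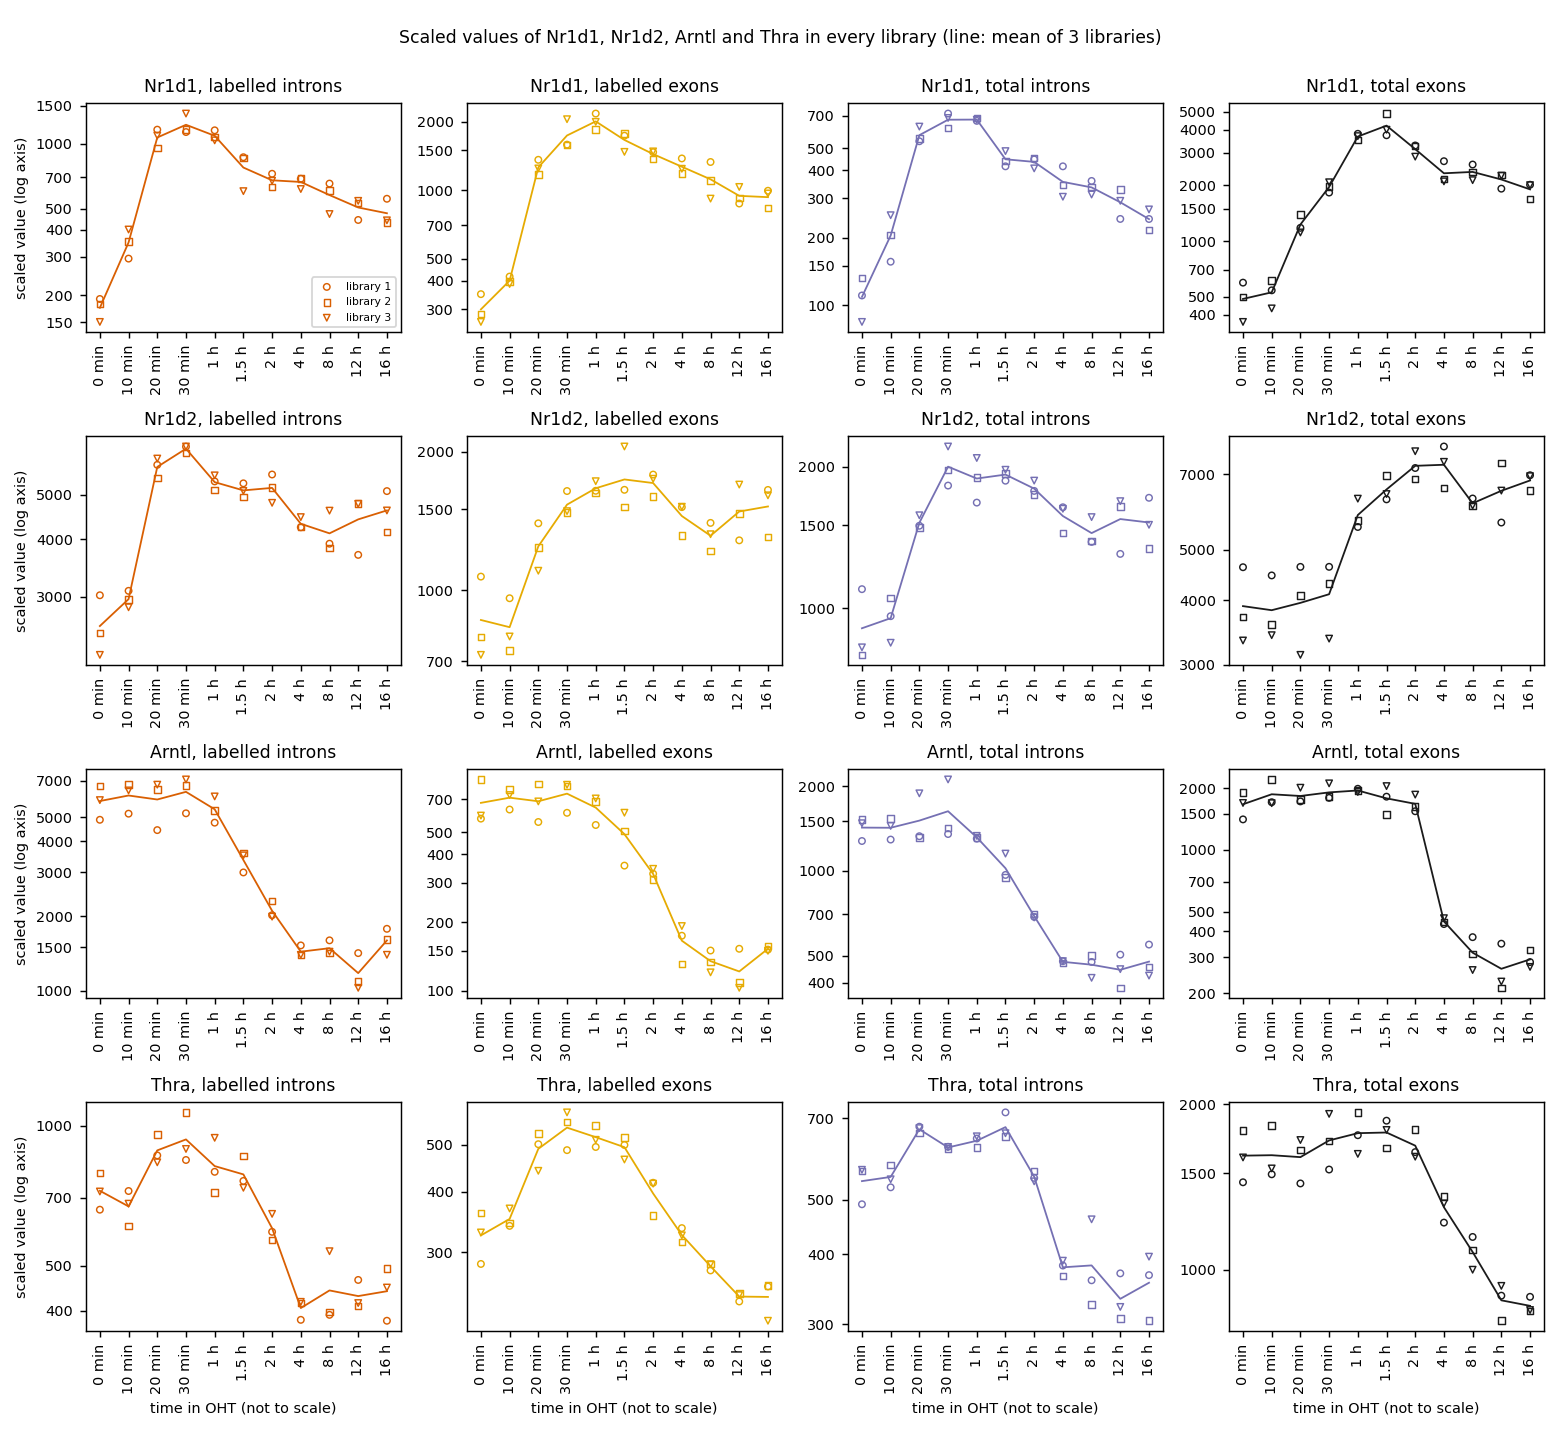
Scaled values (log axes) of Nr1d1, Nr1d2, Arntl and Thra in each of 3 libraries at the 11 times, with labelled introns, labelled exons, total introns and total exons in columns and times spaced evenly, not to scale. Nr1d1 and Nr1d2 are high from 20 min in introns and labelled exons, whereas Arntl is low from 1.5 h to 4 h on, depending on the table.

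Timing was set side by side as the minute at which the mean first reached 50% of its largest change from 0 min, by straight lines between sampled times. By the means, introns came first, labelled exons next and total exons last in each gene. For Nr1d1 the times were 14.9 ± 0.506 min in labelled introns, 18.8 ± 0.192 min in labelled exons and 36.8 ± 6.16 min in total exons, where ± is the SD over 3 series of libraries with the same replicate number. For Nr1d2 they were 15.3 ± 0.651, 21.9 ± 4.23 and 55.8 ± 20.9 min. For Arntl they were 88.1 ± 3.31, 107 ± 16.5 and 189 ± 10.8 min. Introns of total RNA gave 15 ± 1.64 min for Nr1d1, 18.8 ± 1.08 min for Nr1d2 and 97.9 ± 7.12 min for Arntl. The single series did not always keep this order. Arntl took 89 to 120 min in labelled exons, which overlapped 84.8 to 91.3 min in labelled introns and 89.5 to 103 min in total introns, and for Nr1d2 total introns (17.6 to 19.7 min) overlapped labelled exons (19.4 to 27.5 min).

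The mean of total exons of both REV-ERB genes thus reached its midpoint before that of Arntl labelled introns. For Nr1d2 the series did not separate there, since its replicate 1 series took 90.4 min in total exons and the Arntl series took 84.8 to 91.3 min in labelled introns. Within 1 table, all 3 series of Arntl came later than all series of both REV-ERB genes, with 84.8 to 91.3 min against 14.4 to 15.9 min in labelled introns. Nr1d1 and Nr1d2 overlapped in labelled introns. In labelled exons the Nr1d1 series (18.6 to 19 min) and those of Nr1d2 (19.4 to 27.5 min) nearly touched, and their order is not resolved. The sampled intervals widen along the course, which limits how finely a late time can be placed. The genes also differ in length, with spans of 106658 bases for Arntl, 35074 for Nr1d2 and 7402 for Nr1d1. The part of gene length in these times was not tested.

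**Figure D3:**
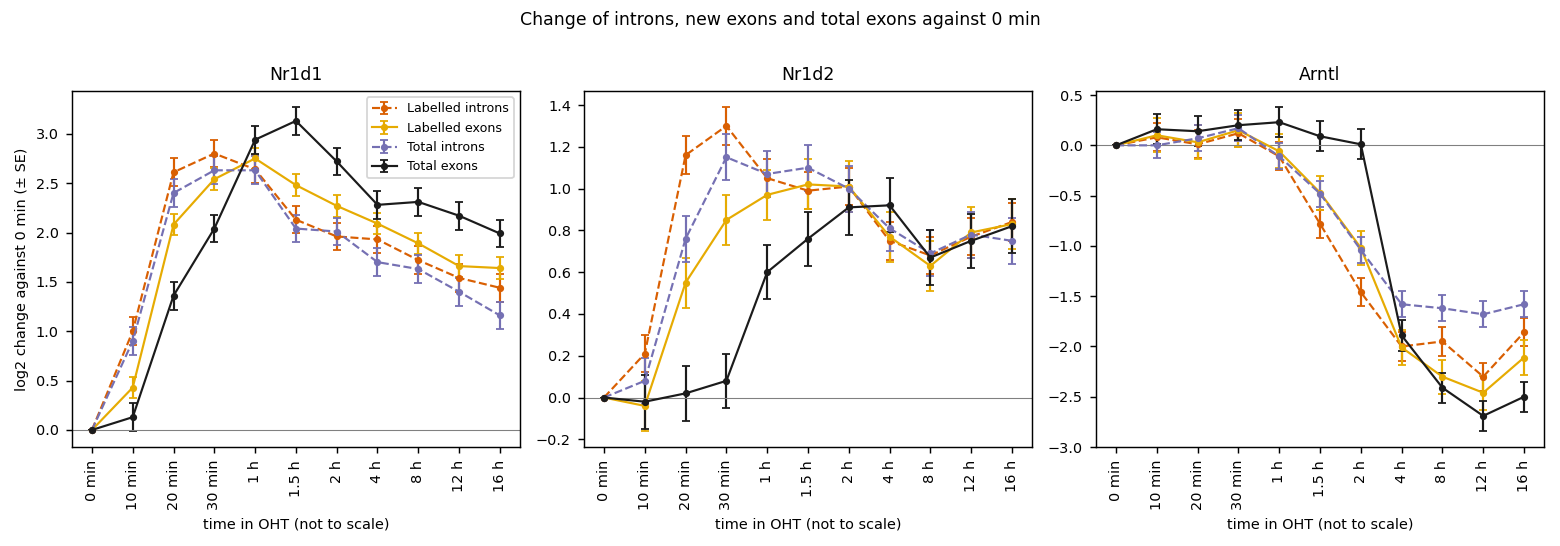
Log2 change against 0 min (± SE) of labelled introns, labelled exons, total introns and total exons of Nr1d1, Nr1d2 and Arntl, over 11 times spaced evenly, not to scale. Dashed lines are introns and solid lines exons. Total exons of Arntl stay near 0 until 2 h and stand at -1.89 at 4 h, after labelled introns had reached -1.46 at 2 h.

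Over the 11 time means of labelled exons, Nr1d1 and Nr1d2 had a Pearson r of 0.917, Nr1d1 and Arntl -0.102 and Nr1d2 and Arntl -0.324. In total exons these values were 0.775, -0.188 and -0.569. The points share their libraries and the 0 min mean, and the values are a description. The REV-ERB pair thus had the highest of the 3 values in both exon tables.

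Introns per length were set against exons per length with RPKM, a value per length and library size, within each library. In labelled RNA this percent was highest at the first times at which the REV-ERB genes were higher. Intron RPKM of Nr1d1 was 38%, 50.3% and 59.2% of exon RPKM at 10 min and 47.8%, 44.6% and 50.9% at 20 min, against 29.6%, 36.4% and 28.6% at 0 min. Both times lay above 0 min, as in 6.83% and 16.4% of all genes. By 1 h it was 29.2% ± 3.01, which overlapped 0 min. For Nr1d2 it was 69.2%, 71.3% and 93.6% at 20 min, against 44.7%, 53.5% and 45.9% at 0 min, so it lay above 0 min at 20 min too, and 50.8% ± 2.96 at 1 h. The median over all genes moved little, with 34.8% at 20 min and 33.1% at 0 min.

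In total RNA the same percent of Nr1d1 was 27% ± 5.44 at 20 min and 6.19% ± 1.07 at 1.5 h, against 12.8% ± 3.06 at 0 min, so it lay above (as in 11.4% of all genes) and later below the starting range (9.54%). For Nr1d2 it was 6.73% ± 1.85 at 20 min and 8.96% ± 2.55 at 30 min, against 3.81% ± 0.121 at 0 min. From 4 h to 16 h the Nr1d2 percent overlapped 0 min, and at no time did it lie below. Arntl ran the other way round from Nr1d1. Its intron RPKM in total RNA was 2.73%, 2.48% and 2.14% of exon RPKM at 2 h, against 5.04%, 5.04% and 4.94% at 0 min, and then 6.43%, 6.78% and 6.27% at 4 h and 9.27%, 9.97% and 11.2% at 12 h. The percent of Arntl thus lay below all 0 min libraries at 1 h, 1.5 h and 2 h and above them from 4 h to 16 h. Shares of all genes below were 23.4%, 9.54% and 11% at the first 3 of these times, and shares above were 10.4%, 4.79%, 9.48% and 12.4% at the later ones. The 0 min range of Arntl was narrow (4.94% to 5.04%), and the median of all genes stayed between 4.43% and 5.09%.

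**Figure D4:**
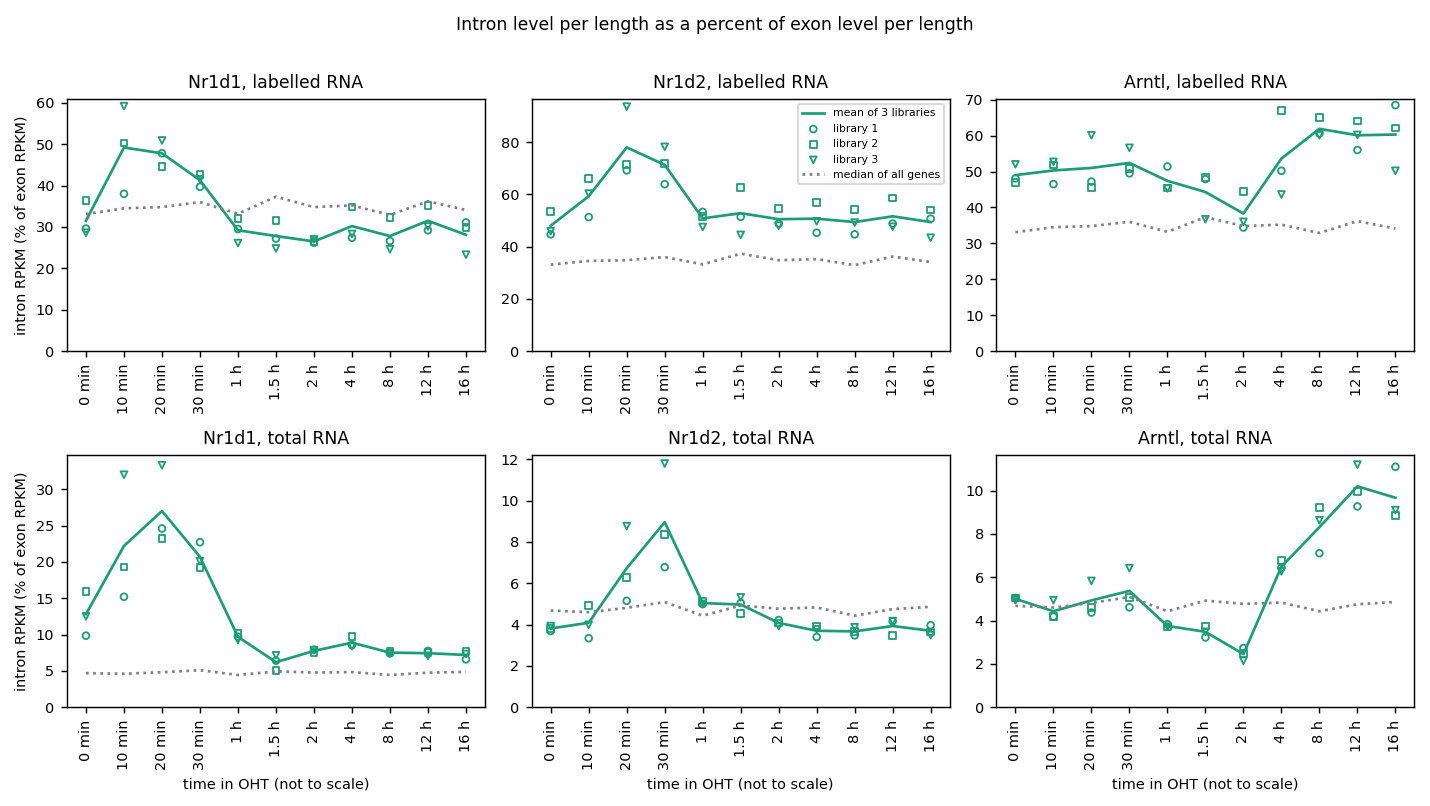
Intron RPKM as a percent of exon RPKM in labelled RNA (top) and total RNA (bottom) for Nr1d1, Nr1d2 and Arntl, with 1 symbol per library, the mean as a line and the median of all genes dotted. Times are spaced evenly, not to scale. In total RNA the percent of Arntl is lowest at 2 h (2.45%) and highest at 12 h (10.2%).

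Per length, the order of the 3 genes in total exons changed along the course. At 0 min Nr1d2 had 12.8 ± 2.42 RPKM, Arntl 4.6 ± 0.575 RPKM and Nr1d1 3.03 ± 0.745 RPKM. At 1.5 h Nr1d1 had 25.3 ± 4.01 RPKM, Nr1d2 20.7 ± 1.46 RPKM and Arntl 4.73 ± 0.702 RPKM. At 16 h Nr1d2 had 22.5 ± 1.24 RPKM, Nr1d1 11.9 ± 1.33 RPKM and Arntl 0.809 ± 0.0657 RPKM. Nr1d2 was thus the more abundant REV-ERB gene per length before OHT and at 16 h, and Nr1d1 had the higher mean at 1 h and 1.5 h. The Arntl mean lay above that of 18.1% of all genes at 16 h and of 40.2% at 0 min.

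The genes whose labelled exon means over the 11 times were most like those of each gene were taken among 924 genes with a mean of at least 50 and a range of at least 1 in log2. For Nr1d1 they were Sik1 (r = 0.986), Slc30a1 (0.983), Klf9 (0.98), Klf16 (0.963) and Klhl21 (0.958). Sik1 encodes a salt-inducible kinase, Slc30a1 a zinc exporter and Klf9 a Krüppel-like transcription factor. For Nr1d2 they were Zfp28 (r = 0.977), Lonrf1 (0.947), Grasp (0.945), Ica1l (0.938) and Tfap4 (0.938), the last of which encodes the E-box binding factor AP4. For Arntl they were Cnksr3 (r = 0.986), Prune2 (0.985), Sec24d (0.983), Tbc1d9 (0.983) and Pim1 (0.982), of which Sec24d encodes a subunit of the COPII vesicle coat and Pim1 a kinase. By Spearman rho 4 of these 5 remained among the closest for Nr1d1 and 2 each for Nr1d2 and Arntl, and in total exons 4 remained for Nr1d1, 0 for Nr1d2 and 2 for Arntl.

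The rest of the clock and REV-ERB pathway was read from 6 lists of 78 genes, 64 of which were in the tables. In labelled exons 12 of these were higher and 3 lower at 1 h, where 13.7% of all genes were called higher and 9.65% lower (limma, Benjamini-Hochberg adjusted over all genes). Without replicate 1 at 1 h, or without replicate 2 at 0 min, 1 was lower. At 4 h 15 were higher and 12 lower, against 19.6% and 18.8% of all genes, and at 16 h 15 and 12, against 22.7% and 21.6%. In total exons 10 were higher and 0 lower by limma at 1 h, where 5.08% and 3.66% of all genes were called, and 2 were lower at an unadjusted p under 0.05. At 4 h 14 and 12 were called (19.5% and 19.9% of all genes) and at 16 h 19 and 16 (26.3% and 29.6%). Over both directions the shares of list genes called were near those of all genes at 4 h and 16 h, and in labelled exons at 1 h too. In total exons at 1 h the share of list genes was the higher, and this difference was not tested.

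Among activators, the partner and paralog of BMAL1 moved little or were scarce. Clock, the partner of BMAL1, had 2350 ± 178 in labelled exons at 4 h and 2757 ± 213 at 0 min, a log2 change of -0.23 ± 0.06 (limma adjusted p = 0.00248). In total exons it fell by 0.22 ± 0.05 at 4 h (limma adjusted p = 0.000274). Arntl2, the paralog of Arntl, and Rora, which activates through ROREs, had means of 8.61 to 20.99 and of 8.749 to 15.8 in these comparisons, so both were near the filter. Rora passed in none of the 6 comparisons. Arntl2 was called higher in total exons at 16 h (limma log2 change 1.30 ± 0.53, adjusted p = 0.0375), a call lost without replicate 1 at 0 min (0.86) and without replicate 1, 2 or 3 at 16 h (1.34, 1.17 and 1.38).

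Among the clock repressors and E-box output genes, the class to which Nr1d1 and Nr1d2 themselves belong, more genes rose than fell at 1 h, 4 h and 16 h. In labelled exons at 4 h the counts were nearly even. Of 16 genes in the tables, 7 rose and 1 fell in labelled exons at 1 h, with a median log2 change of 0.41 against 0.01 over all genes. At 4 h 6 rose and 5 fell, with a median of 0.21, and at 16 h 8 rose and 2 fell, with a median of 0.24. In total exons the medians were 0.35, 0.31 and 0.32 at the 3 times, with 7, 8 and 8 genes called higher by limma. There 0, 3 and 1 were called lower by limma, and at 1 h 1 was lower at an unadjusted p under 0.05. Of all genes, 5.08%, 19.5% and 26.3% were called higher and 3.66%, 19.9% and 29.6% lower in total exons. In labelled exons these shares were 13.7%, 19.6% and 22.7% higher and 9.65%, 18.8% and 21.6% lower. Bhlhe41, which encodes the repressor DEC2, had 54.43 ± 7.46 at 1 h and 14.58 ± 6.01 at 0 min (log2 change 1.90 ± 0.26, limma adjusted p = 9.93e-07) and was still higher at 16 h (1.84 ± 0.26). Bhlhe40, its paralog DEC1, rose by 1.08 ± 0.14 at 1 h (adjusted p = 1.81e-07) and changed by 0.29 ± 0.14 at 4 h, where it did not pass (limma adjusted p = 0.0867). At 16 h it was called lower (-0.37 ± 0.14, limma adjusted p = 0.0263), a call lost without replicate 1 or 2 at 0 min (-0.22 and -0.37), without replicate 2 at 16 h (-0.27) and on log2(RPKM + 1) (-0.30). Tef, a transcription factor that acts on D-boxes, rose by 0.69 ± 0.10 at 1 h and 0.75 ± 0.10 at 16 h (limma adjusted p = 2.12e-06 and 1.22e-07). Nfil3, the gene with the smallest p of this list, was lower at 4 h and 16 h. It is counted in this list and among the REV-ERB targets, where its values are given below.

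Genes known as REV-ERB targets or RORE genes did not move as one group with Arntl. Of 12 in the tables, 3 rose and 0 fell by limma in labelled exons at 1 h (0 fell at an unadjusted p under 0.05 too). At 4 h 3 rose and 3 fell, and at 16 h 3 rose and 7 fell. The medians were 0.10, -0.01 and -0.25 at the 3 times, against 0.01, 0 and 0.01 over all genes. Shares of all genes called higher were 13.7%, 19.6% and 22.7% at these times, and shares called lower were 9.65%, 18.8% and 21.6%. The rises at 4 h and 16 h were thus near the shares of all genes, and the falls at 16 h lay above theirs. This difference was not tested. Nfil3, a D-box repressor and REV-ERB target in mouse, had 218.7 ± 11.5 at 4 h and 454.6 ± 50.7 at 0 min (log2 change -1.05 ± 0.11, limma adjusted p = 1.74e-09), and 226.8 ± 14.9 at 16 h. At 1 h it was not lower (0.23 ± 0.11, limma adjusted p = 0.132). Ccl2, a chemokine, and Cyr61, a matrix protein, were within the spread at 4 h (0.12 ± 0.13 and -0.15 ± 0.17) and fell by 1.19 ± 0.13 and by 1.56 ± 0.17 at 16 h (limma adjusted p = 1.84e-09 and 2.12e-09). Pfkfb3, an enzyme that sets the rate of glycolysis, was higher at all 3 times, with 842.5 ± 38.2 at 1 h and 452.1 ± 26.1 at 0 min (0.90 ± 0.08, limma adjusted p = 4.39e-10). Nfil3 thus shared with Arntl a low level at 4 h and 16 h, Ccl2 and Cyr61 a low level at 16 h, and Pfkfb3 did not.

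Of the 6 corepressor genes through which REV-ERB proteins act, 0 were called by limma in labelled exons at 1 h or 16 h. At each of these times 1 was higher at an unadjusted p under 0.05. By limma 1 rose and 1 fell at 4 h. Among all genes 13.7% rose and 9.65% fell at 1 h, 19.6% and 18.8% at 4 h and 22.7% and 21.6% at 16 h. The counts at 4 h were thus near the shares of all genes. The genes called at 4 h were Gps2 (log2 change 0.33 ± 0.11, limma adjusted p = 0.02) and Ncor1 (-0.15 ± 0.06, limma adjusted p = 0.0406). The call of Gps2 was lost without replicate 2 at 4 h (0.20) and without replicate 2 or 3 at 0 min (0.31 and 0.32), and also with no further scaling (0.27) and on the RPKM scales (0.27 and 0.24). That of Ncor1 was lost without replicate 2 or 3 at either time, with values of -0.12 without replicate 2 and -0.16 without replicate 3, and in a fit of only the 2 groups compared (-0.15). In total exons Gps2 fell by 0.40 ± 0.07 at 4 h (limma adjusted p = 6.44e-05), which is the opposite sign to labelled exons, and the difference between both RNAs was not tested. In total exons 2 of the 6 were lower at 4 h and 3 at 16 h, where 19.9% and 29.6% of all genes were called lower.

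Of 12 genes of heme synthesis and breakdown, 1 rose and 0 fell by limma in labelled exons at 1 h (0 fell at an unadjusted p under 0.05), 1 rose and 1 fell at 4 h, and 2 rose and 1 fell at 16 h. Of all genes, 13.7% rose and 9.65% fell at 1 h, 19.6% and 18.8% at 4 h and 22.7% and 21.6% at 16 h. The heme counts are small, and their distance from these shares was not tested. In total exons 0 rose and 3 fell by limma at 4 h, and 4 rose and 4 fell at 16 h. At 1 h 0 were called there, and 1 was higher and 1 lower at an unadjusted p under 0.05. The shares of all genes in total exons are those given above. In labelled exons Hmox1, which breaks heme down, rose by 0.64 ± 0.15 at 1 h and 0.57 ± 0.15 at 16 h (limma adjusted p = 0.00114 and 0.00152). Alas1, the first enzyme of heme synthesis, rose by 0.44 ± 0.10 at 16 h (limma adjusted p = 0.00055), and Ppox, a late enzyme, fell by 0.65 ± 0.16 at 4 h (limma adjusted p = 0.00188). Uros, an enzyme in the middle of the pathway, changed by 0.47 ± 0.16 at 4 h (limma adjusted p = 0.016), a call lost without replicate 1 or 3 at 0 min (0.42 and 0.38) or replicate 3 at 4 h (0.42). In total exons Alas1 at 16 h (0.36 ± 0.07) and Ppox at 4 h (-0.52 ± 0.13) were called in the same directions. Hmox1 was not called there at 1 h (0.42 ± 0.35), 4 h (0.32 ± 0.35) or 16 h (0.59 ± 0.35), nor Uros at 4 h (-0.15 ± 0.12).

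Of 18 clock kinases and ubiquitin ligases, 2 rose and 2 fell in labelled exons at 1 h, 5 rose and 3 fell at 4 h, and 3 rose and 3 fell at 16 h. Each count lay within 2 genes of what the shares of all genes in labelled exons, given above, come to for the list. Gsk3b, a kinase that stabilises REV-ERBα, fell by 0.40 ± 0.07 at 4 h (limma adjusted p = 1.84e-05). Siah2 and Mycbp2 encode ubiquitin ligases known for the turnover of REV-ERBα. Siah2 rose by 0.62 ± 0.12 at 1 h (limma adjusted p = 9.81e-05) and Mycbp2 by 0.24 ± 0.06 at 1 h and 0.30 ± 0.06 at 16 h (limma adjusted p = 0.00259 and 0.00011). Prkaa2, a catalytic subunit of the kinase AMPK, rose by 0.72 ± 0.14 at 16 h (limma adjusted p = 9.8e-05).

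**Figure D5:**
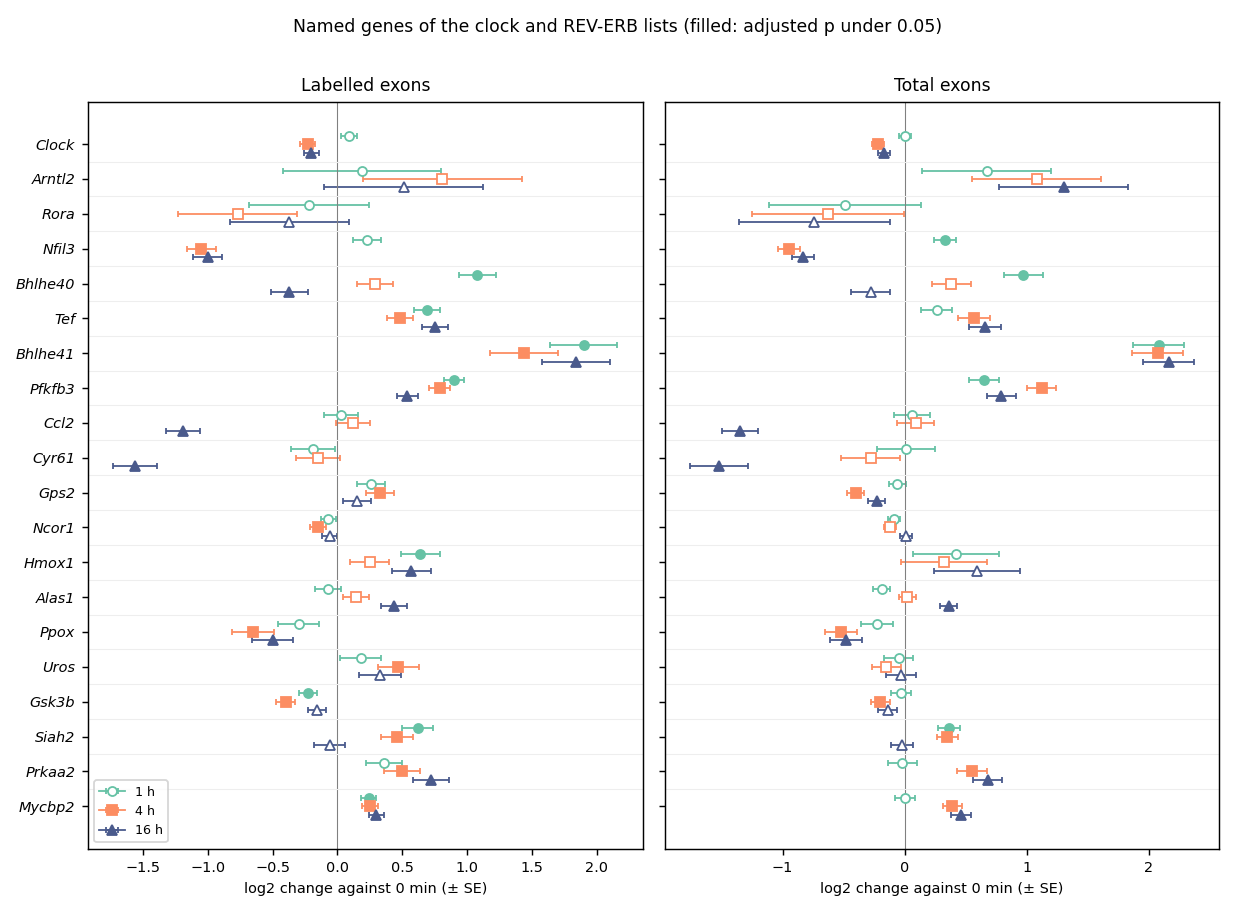
Log2 change against 0 min (± SE) at 1 h, 4 h and 16 h of the named genes of the 6 lists, in labelled exons (left) and total exons (right), with filled symbols where the limma adjusted p was under 0.05. Bhlhe41 and Pfkfb3 stay above 0 in both panels and Nfil3 lies near -1 at 4 h, whereas Ccl2 and Cyr61 are low at 16 h.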

How the data were processed

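Labelled and total RNA were sequenced in 66 libraries. The submitters' processing notes name TopHat2 2.0.8, TopHat and mm9. What counted the reads, with which annotation and strand setting, is not given in the sources used here. Exon and intron tables of 11513 genes were deposited in 2 forms, named counts and RPKM. The deposited values named counts are a score, whole numbers that the authors had already rescaled (among the numbers 2 to 28, up to 5 were nearly missing in each of 13 of 66 exon libraries). No count model was used, and true depth is unknown. In the deposited RPKM tables each gene has its values named counts multiplied by 1 fixed number, within 0.976% over 5401 gene rows with high values. Summed over genes, a library held (in 1e6) 31.28 to 39.26 in labelled introns, 11.62 to 14.12 in labelled exons, 10.65 to 13.01 in total introns and 46.5 to 52.72 in total exons.

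Libraries of a table were brought to 1 scale by a trimmed mean of log ratios (trimming 30% of ratios and 5% of levels), with factors of 0.921 to 1.089. Genes needed 3 libraries with a value of 10 or more. The log2(scaled value + 1) of these deposited values was fitted with limma 3.58.1 in R 4.3.3, with 1 mean per time over 33 libraries and a mean-variance trend, and this scale understates changes of low genes. Printed p-values are two-sided and Benjamini-Hochberg adjusted over every gene kept, with a threshold of 0.05. Counts at an unadjusted p under 0.05 are named as such. The fit was also run on simulated counts with the same noise setting for every gene. These rescaled values differ from that setting, so no conclusion is drawn from that run.

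Groups and replicate numbers came from sample titles. Members and lists were chosen with earlier results of these data known. Named genes were the 3 members, Thra, Myc, the activators, in each other list up to 4 genes that passed in labelled exons at 1 h, 4 h or 16 h with the smallest p, and the 5 genes most like each member. Alternatives were other scalings, no filter, other pseudocounts, RPKM, a replicate block, a fit of only the 2 groups compared and leaving out single libraries. Positions are GENCODE M1 on mm9, and RefSeq promoters are on GRCm38.p6.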

Additional observations from a re-analysis of the deposited data

How the results depend on the processing

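Of 540 recomputed log2 changes of Nr1d1, Nr1d2 and Arntl at 1 h, 4 h and 16 h, 511 moved by less than the spread between libraries. The other 29 moved by more, with no change of sign. Among the 511 are all 216 that left out 1 library, which could not move by more. Leaving out 1 of 3 libraries shifts a mean by less than their spread. Dropping the filter, the replicate block and the fit of only the 2 groups compared left these log2 changes as they were by design. The count of 511 is therefore no measure of stability. The 29 all came from RPKM scales, whose larger pseudocounts relative to the values shrink changes by construction. On log2(RPKM + 1), in the order 1 h, 4 h and 16 h, Nr1d1 gave 1.69, 1.17 and 0.81 in labelled introns, 2.31, 1.67 and 1.31 in labelled exons, 1.22, 0.70 and 0.43 in total introns, and 2.58 and 1.90 at 1 h and 4 h in total exons. On the same scale Nr1d2 gave 0.73 at 1 h and 0.59 at 16 h in labelled introns, and 0.41, 0.32 and 0.30 in total introns at the 3 times. Arntl at 4 h and 16 h gave -0.75 and -0.72 in labelled introns, -1.12 and -1.14 in labelled exons, -0.19 and -0.19 in total introns, and -1.35 and -1.62 in total exons. On log2(RPKM + 0.1), Arntl at 4 h and 16 h gave -1.67 and -1.58 in labelled introns and -0.89 and -0.89 in total introns, and Nr1d1 gave 2.29 at 1 h in total introns. The midpoint of Nr1d1 labelled exons was 18.4 min with scaling by library sums and 19 min with no further scaling, against 18.8 min. Leaving out 1 library, list genes called lower in labelled exons at 1 h numbered 1 to 3, and the share of all genes called in total exons at 1 h was 5.48% to 7.12%, against 8.74% with all libraries. It was 5.53% without replicate 1 at 1 h and 5.48% without replicate 3 at 0 min.

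The replicate numbers were not taken as pairs, because deviations of same-numbered libraries correlated over 0.1 for all 3 numbers only in total exons at 4 h (0.178, 0.186 and 0.123) among the comparisons checked at 1 h, 4 h and 16 h. Each number correlated best with itself there, in total introns at 4 h and in total exons at 16 h. With the replicate number as a block, the share of all genes called was 25.6%, 40.8% and 46.1% in labelled exons and 11.4%, 43.6% and 58.9% in total exons at 1 h, 4 h and 16 h, and no named gene lost its call. True depth is unknown, no spike-in sets an absolute scale, and a list gene near the filter, such as Rora, has changes that these libraries could not resolve.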
